A study of Mus musculus with 32 samples.

Results

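The genes examined here mark macrophages, the phagocytes of the innate immune system, and were followed through the liver and the adipose depots of *Gpr146*-/- mice and their *Gpr146*+/+ littermates. They were chosen by name, 10 of the 24646 genes measured, and each had a row of its own in the table of every tissue. Of these, 7 are expressed by macrophages in general, namely *Cd68*, *Itgam*, *Csf1r*, *Emr1* (now *Adgre1*, the F4/80 antigen), *Lyz2*, *Fcgr1* and *Mertk*, and are called common genes here. The other 3, *Mrc1*, *Cd163* and *Lyve1*, are typical of macrophages that reside in tissues and are called resident-type genes. The question was whether these genes, and the common against the resident-type genes, differed between the genotypes in each tissue.

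Macrophages depend on signalling through CSF1R, the receptor for the cytokines CSF1 and IL34, and on the transcription factor PU.1. In lean adipose tissue most macrophages are of the resident type, which take up haemoglobin complexes through CD163, glycoproteins through the mannose receptor MRC1, and carry the hyaluronan receptor LYVE1. In obesity, monocyte-derived macrophages gather around dying adipocytes as crown-like structures. The liver has a resident population of its own, the Kupffer cells, which line the sinusoids beside endothelial cells. Several of the 10 genes are not particular to macrophages: *Itgam* and *Lyz2* are also expressed by neutrophils, and *Lyve1* by lymphatic endothelium and, with *Mrc1*, by the sinusoidal endothelium of the liver.

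RNA came from whole liver, epididymal fat (eWAT), inguinal fat (iWAT) and brown fat (BAT) of male mice aged 20 weeks, which had received a high-fat diet (HFD) for 3 months and were fasted overnight. All of these conditions were shared by both genotypes, and the knockout affected every cell of the body, macrophages included. Each tissue of each mouse was hybridised to 1 Affymetrix Mouse Gene 2.1 ST array, with 4 wild-type and 4 knockout mice per tissue and 32 arrays in all. The deposited values are log2 intensities, 1 per gene and mouse, so that a difference of 1 stands for a 2-fold change. *Gpr146* itself was lower in every knockout array than in every wild-type array of its tissue, by 1.77 on the log2 scale in liver (6.22 against 4.45), 1.53 in eWAT, 1.55 in iWAT and 1.16 in BAT. Array medians ran from 3.00 to 3.06 in liver, 3.13 to 3.18 in eWAT, 3.65 to 3.73 in iWAT and 2.82 to 2.86 in BAT. In iWAT, B cell genes stood far apart between arrays, with a list mean of 7.51, 7.46 and 7.23 in wild-type mice 1 and 2 and knockout mouse 2, 5.43 in knockout mouse 4, and 3.16 to 3.62 in the rest. In BAT, skeletal muscle genes did the same, with 7.62, 7.57 and 6.49 in knockout mouse 2 and wild-type mice 3 and 2, and 2.94 to 3.73 in the rest.

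The bases just before the start of the genes are shown for 5 of them. *Itgam* and *Cd68* fell most in eWAT among the genes whose promoter was used, and *Mrc1* was the resident-type gene that fell with them. *Cd163* and *Mertk* were the genes that moved least there. RefSeq promoters in GRCm38.p6 were used for 7 of the 10 genes, and none was used for *Csf1r*, *Emr1* or *Lyve1*. Each sequence gives the 250 bases before the annotated start, 5′ to 3′ on the strand of the gene, and capitals mark the PU.1 core GAGGAA or its reverse complement. The windows are chr7:128062390-128062639, plus strand, for *Itgam*; chr11:69666171-69666420, minus strand, for *Cd68*; chr2:14229164-14229413, plus strand, for *Mrc1*; chr6:124304401-124304650, plus strand, for *Cd163*; and chr2:128698665-128698914, plus strand, for *Mertk*.
*Itgam*: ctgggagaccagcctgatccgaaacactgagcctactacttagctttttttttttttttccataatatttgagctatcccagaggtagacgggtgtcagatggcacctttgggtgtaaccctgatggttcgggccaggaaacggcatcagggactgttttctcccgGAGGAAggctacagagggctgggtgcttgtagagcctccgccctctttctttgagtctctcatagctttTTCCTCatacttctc
*Cd68*: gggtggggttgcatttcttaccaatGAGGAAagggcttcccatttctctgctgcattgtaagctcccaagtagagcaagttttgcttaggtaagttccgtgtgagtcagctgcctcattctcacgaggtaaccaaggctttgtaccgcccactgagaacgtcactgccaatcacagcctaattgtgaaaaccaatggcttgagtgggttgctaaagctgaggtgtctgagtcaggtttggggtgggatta
*Mrc1*: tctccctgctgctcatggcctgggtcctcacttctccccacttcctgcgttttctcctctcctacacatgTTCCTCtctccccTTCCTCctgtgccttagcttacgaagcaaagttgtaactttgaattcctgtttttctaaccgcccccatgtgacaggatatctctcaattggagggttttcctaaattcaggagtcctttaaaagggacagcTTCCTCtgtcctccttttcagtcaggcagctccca
*Cd163*: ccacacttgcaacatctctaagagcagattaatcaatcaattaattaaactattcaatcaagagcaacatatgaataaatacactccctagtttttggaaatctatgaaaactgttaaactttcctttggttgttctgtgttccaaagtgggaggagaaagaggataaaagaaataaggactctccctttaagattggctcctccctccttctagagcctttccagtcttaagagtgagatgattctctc
*Mertk*: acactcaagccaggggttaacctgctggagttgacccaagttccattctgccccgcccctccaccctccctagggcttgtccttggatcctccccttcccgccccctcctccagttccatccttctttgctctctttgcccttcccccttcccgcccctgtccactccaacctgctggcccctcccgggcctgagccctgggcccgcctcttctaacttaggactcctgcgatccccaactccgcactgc

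The core was found 2 times in *Itgam*, 3 times in *Mrc1* and 1 time in each of *Cd68* and *Fcgr1*, which made 4 of the 7 genes, and in no window of *Cd163*, *Mertk* or *Lyz2*. Across all 32851 promoters of the annotation, 23.3% held it. The MAF motif TGCTGAC, held by 3.81% of promoters, and the E-box CACGTG, held by 6.02%, were found in 0 of the 7. These matches are a description of the letters in this window and not of binding.

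In wild-type mice the macrophage genes were highest in eWAT, where their SD over 4 mice ran from 0.038 to 0.41. The eWAT mean was the highest of the 4 tissues for 9 of the 10 genes, *Cd163* being higher in iWAT. *Cd68*, a lysosomal glycoprotein of phagocytes, had a log2 level of 10.76 ± 0.09 (SD, n = 4) in eWAT, 8.56 ± 0.55 in iWAT, 5.19 ± 0.10 in liver and 5.12 ± 0.22 in BAT. *Itgam*, the alpha chain of the integrin CD11b/CD18, had 7.84 ± 0.038 in eWAT, 6.24 ± 0.51 in iWAT, 3.50 ± 0.032 in BAT and 2.55 ± 0.17 in liver, where it lay below the median of all genes. *Mrc1* had 8.72 ± 0.06 in eWAT, 7.85 ± 0.52 in iWAT, 5.87 ± 0.15 in liver and 5.51 ± 0.33 in BAT. *Cd163* differed from this order, with 6.28 ± 0.40 in iWAT, 5.86 ± 0.28 in eWAT, 4.32 ± 0.52 in liver and 3.84 ± 0.33 in BAT. The ranges of 4 wild-type mice did not overlap between the highest and the next tissue for 8 genes (all but *Cd163* and *Lyve1*), nor between the next and the third for 9 (all but *Mertk*). Between the third and the lowest tissue, which were liver and BAT in either order, they overlapped for 7 genes and did not for *Itgam*, *Mertk* and *Lyve1*. The tables are taken to have been normalised separately for each tissue, so this order is a description. It was the same for 9 genes when all arrays were normalised together by quantiles, and for 6 when the median of each array was subtracted instead.

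**Figure D1:**
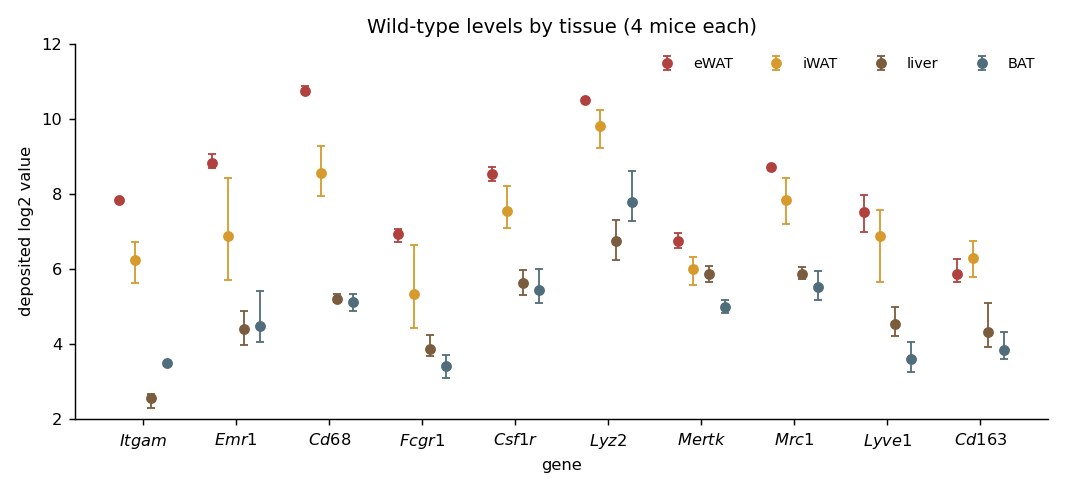
Wild-type levels of the 10 macrophage genes by tissue. The vertical axis gives the deposited log2 value, points are means of 4 wild-type mice and bars run from the lowest to the highest mouse. The eWAT mean is highest for every gene but *Cd163*, and tables are taken to have been normalised separately.

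In eWAT of *Gpr146*-/- mice, 7 of the 10 macrophage genes fell. Genotypes were compared within each tissue with limma, a linear model per gene with variances moderated across genes, and a gene is said to have passed where its p, adjusted by Benjamini-Hochberg over all 24646 genes, was below 0.05. By this rule 15.2% of all genes passed in eWAT, 10.7% as lower and 4.57% as higher in the knockout. The genes that fell were 6 of the 7 common genes (all but *Mertk*) and 1 of the 3 resident-type genes (*Mrc1*). The median log2 fold change was -2.11 over the common genes and -1.33 over the resident-type genes, beside 0.03 over all genes. In whole tissue, fewer cells of a type and less RNA per cell cannot be told apart.

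*Itgam* had the largest change. It measured 7.86, 7.79, 7.88 and 7.84 in the 4 wild-type mice and 4.58, 7.11, 5.11 and 4.59 in the 4 knockout mice. Every knockout mouse was below every wild-type mouse, and knockout mouse 2 lay closest to them. The log2 fold change was -2.49 (95% interval -3.57 to -1.41, adjusted p = 0.0127 from limma), which is 5.62-fold lower.

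*Emr1*, an adhesion receptor used as the standard surface marker of mouse macrophages, measured 8.70, 8.72, 9.07 and 8.81 in wild-type eWAT and 5.37, 8.31, 6.54 and 5.74 in knockout eWAT. *Cd68* measured 10.75, 10.66, 10.87 and 10.76 against 7.32, 10.36, 8.55 and 7.76. *Fcgr1*, the high-affinity receptor for IgG, measured 6.71, 6.90, 7.07 and 7.05 against 3.99, 6.64, 4.38 and 4.29. For all of them the genotypes did not overlap, and knockout mouse 2 was the highest knockout mouse, with the other 3 well below it. The log2 fold changes were -2.34 for *Emr1* (adjusted p = 0.0195), -2.26 for *Cd68* (0.0230) and -2.11 for *Fcgr1* (0.0217).

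*Csf1r*, on which macrophages depend for survival, measured 8.65, 8.41, 8.71 and 8.34 in wild-type eWAT and 6.32, 8.21, 6.75 and 6.60 in knockout eWAT, a log2 fold change of -1.56 (adjusted p = 0.0191). *Lyz2*, the lysozyme of myeloid cells, measured 10.47, 10.47, 10.55 and 10.54 against 9.03, 10.30, 9.83 and 9.24, a log2 fold change of -0.91 (adjusted p = 0.0320). *Lyz2* thus fell least among the common genes that passed, and neither gene had overlapping genotypes. *Mertk*, a receptor for the uptake of dying cells, measured 6.55, 6.61, 6.85 and 6.95 against 6.32, 6.25, 6.70 and 6.60. Its genotypes overlapped, and its log2 fold change of -0.27 (95% interval -0.57 to 0.02) did not pass (adjusted p = 0.195).

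The 3 resident-type genes did not move alike in eWAT. *Mrc1* measured 8.65, 8.77, 8.68 and 8.76 in wild-type mice and 6.80, 8.50, 7.18 and 7.06 in knockout mice, without overlap, and its log2 fold change was -1.33 (adjusted p = 0.0210). *Lyve1* measured 7.96, 7.43, 6.98 and 7.67 against 5.13, 7.65, 6.13 and 5.81. Its log2 fold change was also -1.33, but knockout mouse 2 lay among the wild-type mice and the change did not pass (adjusted p = 0.0840). *Cd163* measured 6.26, 5.65, 5.70 and 5.83 against 5.58, 6.67, 6.05 and 5.70, with overlapping genotypes. Its log2 fold change of 0.14 (95% interval -0.38 to 0.67, adjusted p = 0.720) did not pass, and its sign turned when knockout mouse 2 was left out (-0.08).

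**Figure D2:**
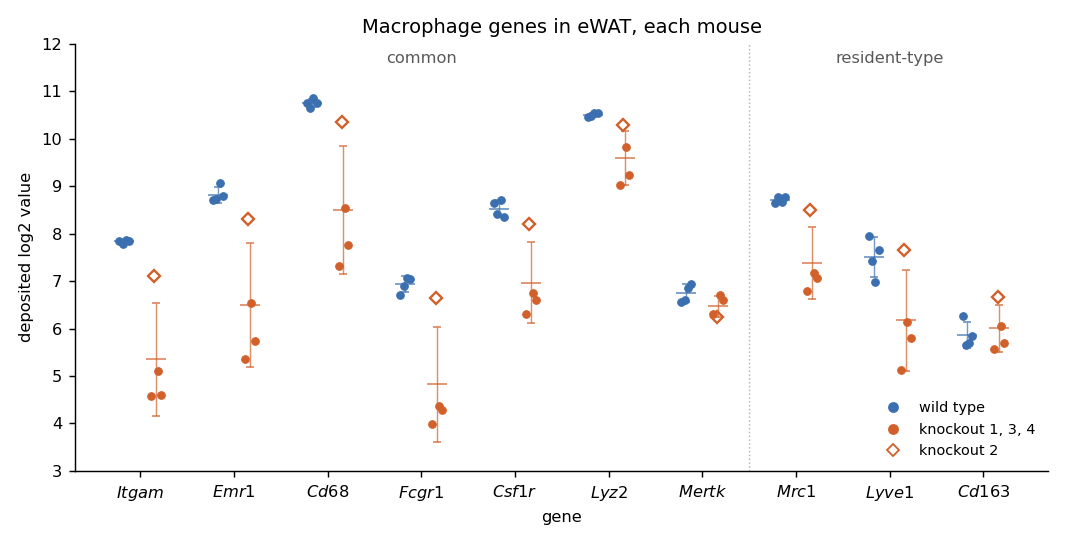
Macrophage genes in eWAT. The vertical axis gives the deposited log2 value of each mouse, with bars for the mean and SD of 4 mice; knockout mice 1, 3 and 4 are filled circles and knockout mouse 2 is an open diamond. For *Itgam*, *Emr1*, *Cd68*, *Fcgr1*, *Csf1r*, *Lyz2* and *Mrc1* every knockout mouse is below every wild-type mouse, with knockout mouse 2 closest to them.

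The eWAT calls lay close to the threshold. With 1 array left out, 8 of the 10 genes passed without knockout mouse 2 and 6 without knockout mouse 3, but 3 without wild-type mouse 1 or knockout mouse 1, 2 without wild-type mouse 4, and 1 without wild-type mouse 2, wild-type mouse 3 or knockout mouse 4. *Itgam* passed in all 8 of these fits, with adjusted p from 2.98e-06 to 0.0430, and the other 6 genes that fell kept their direction in all 8. The methods' t-test had 7 members lower at an unadjusted p below 0.05, where 27.6% of all genes passed in either direction, and 0 members and 38 genes after adjustment. In limma, 8 of the 10 were lower at an unadjusted p below 0.05, where 17.4% of all genes were, and 9 had lower means, where 43.5% of all genes did. Values without overlap, lower in the knockout, were found for 7 of the 10 and for 13% of all genes.

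In liver, 9 of the 10 macrophage genes had lower means in *Gpr146*-/- mice, as did 46.9% of all genes, and none passed after adjustment, where 0.499% of all genes passed as lower and 0.661% in either direction. The median log2 fold change over the 10 was -0.67, beside 0.01 over all genes. At an unadjusted p below 0.05, 7 of the 10 were lower, where 7.48% of all genes were. All 4 knockout values were below all 4 wild-type values for *Fcgr1*, *Mrc1* and *Cd163*, a pattern found in 4.16% of all genes.

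*Lyz2* had the largest difference in liver, with 6.75, 6.63, 7.32 and 6.25 in wild-type mice and 4.77, 6.58, 5.19 and 5.28 in knockout mice. *Cd68* measured 5.15, 5.14, 5.33 and 5.13 against 3.54, 5.40, 3.65 and 3.97. *Mrc1* measured 5.95, 5.76, 6.04 and 5.72 against 4.28, 5.67, 4.86 and 4.79. In each case knockout mice 1, 3 and 4 were below all wild-type mice, while knockout mouse 2 was above them (*Cd68*), among them (*Lyz2*) or just below them (*Mrc1*). The log2 fold changes were -1.28 (adjusted p = 0.126), -1.05 (0.188) and -0.97 (0.0931), in this order. *Csf1r* followed the same course, with 5.96, 5.32, 5.90 and 5.30 against 4.48, 5.61, 4.47 and 4.65. Without knockout mouse 2, 4 genes passed, with log2 fold changes of -1.47 for *Cd68* (adjusted p = 0.000248), -1.66 for *Lyz2* (0.00548), -1.22 for *Mrc1* (0.0030) and -1.09 for *Csf1r* (0.0134). Without any other array, 0 passed.

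*Cd163* and *Fcgr1* took another course, with knockout mouse 2 below all wild-type livers and, for *Cd163*, the lowest of the knockout livers. *Cd163*, a Kupffer cell gene in liver, measured 5.08, 3.91, 4.24 and 4.05 against 3.66, 3.46, 3.79 and 3.65 (log2 fold change -0.68, adjusted p = 0.186). *Fcgr1* measured 3.85, 3.69, 4.23 and 3.66 against 3.22, 3.46, 3.38 and 3.50 (-0.47, adjusted p = 0.126). The remaining genes that were lower, *Emr1*, *Lyve1* and *Mertk*, had overlapping genotypes and log2 fold changes of -0.66, -0.46 and -0.23, and *Itgam*, which was dim in liver, had 0.03.

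Genes of Kupffer cells, the resident macrophages of the liver, and of neighbouring cell types were also examined there. Of 6 Kupffer cell genes, all had lower knockout means (median log2 fold change -1.03), where 46.9% of all genes did, and 0 passed. Of 8 genes of sinusoidal and other vascular endothelium, 5 fell, where 0.499% of all genes did. All 8 had knockout values below all wild-type values, a pattern of 4.16% of all genes, with a median log2 fold change of -0.81. Those that passed, named after their values were seen, were *Clec4g*, a lectin of sinusoidal endothelium (-1.32, adjusted p = 0.00167), *Tek*, the angiopoietin receptor (-0.76, 0.00663), *Oit3* (-0.97, 0.0144), *Kdr*, a VEGF receptor (-0.86, 0.0317), and *Cdh5*, the cadherin of endothelial junctions (-1.08, 0.0458). The mean of this list ran from 5.21 to 5.38 in wild-type livers and from 4.11 to 4.85 in knockout livers, and *Stab2*, a defining gene of sinusoidal endothelium, had 6.09 ± 0.08 against 5.53 ± 0.30 (SD, n = 4). Its part in the lower *Mrc1* and *Lyve1* of liver was not tested. Hepatocyte genes did not pass (0 of 6, median log2 fold change 0.05).

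In iWAT all 10 macrophage genes had lower means in *Gpr146*-/- mice, where 46.8% of all genes did, and none passed in limma, as was the case for all genes (0%). The deleted gene *Gpr146* did not pass there either (log2 fold change -1.55, adjusted p = 0.221 from limma), so the lack of calls is weak evidence of no change. At an unadjusted p below 0.05, 6 of the 10 were lower, where 8.34% of all genes were. The median log2 fold change was -0.96 over the common genes and -0.86 over the resident-type genes, beside 0.02 over all genes. *Cd68* measured 8.38, 7.95, 8.64 and 9.27 in wild-type mice and 6.52, 7.83, 7.50 and 6.75 in knockout mice. It was the only member without overlap, a pattern found in 3.86% of all genes, and its log2 fold change was -1.41 (95% interval -2.18 to -0.63, adjusted p = 0.221). *Itgam* measured 6.03, 5.62, 6.72 and 6.58 against 4.58, 5.81, 4.78 and 4.54, a log2 fold change of -1.31 (adjusted p = 0.221). *Emr1* measured 6.25, 5.71, 8.43 and 7.09 against 5.31, 5.93, 5.23 and 5.56, a log2 fold change of -1.36 (adjusted p = 0.272). Wild-type mice 3 and 4 were the highest for both genes and knockout mouse 2 reached into the wild-type range. Among the resident-type genes, *Cd163*, *Mrc1* and *Lyve1* had log2 fold changes of -0.88, -0.86 and -0.78 (adjusted p from 0.251 to 0.479).

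The arrays of iWAT that were high in B cell genes did not share a direction in their macrophage genes. The mean of the 10 genes, each relative to its wild-type mean, was -0.11 and -0.52 in wild-type mice 1 and 2. It was 0.32 and 0.30 in wild-type mice 3 and 4. Over all genes, wild-type mice 3 and 4 were the highest wild-type mice for 29.7% and 30.1%, and mice 1 and 2 for 17.3% and 22.8%. Over the 24 further common macrophage genes wild-type mice 1 and 2 were not both lower, with list means of 6.56 and 6.40 against 6.47 and 6.19. Knockout mouse 2, also high in B cell genes, was the highest knockout mouse for all 10 members, and its mean over the 24 further genes was 6.49, against 4.87 to 5.47 in the other knockout mice. With the mean of the B cell list as a covariate 0 members passed, and the log2 fold change of *Cd68* was -1.43 (adjusted p = 0.0823) and that of *Itgam* -1.33 (0.0873). Without the 3 arrays highest in B cell genes, a choice made after seeing the data that left 2 wild-type and 3 knockout mice, *Itgam* passed with -2.02 (adjusted p = 0.00806) and *Cd68* had -2.03 (0.0638). *Itgam* also passed without knockout mouse 2 alone (-1.61, adjusted p = 0.0409).

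In BAT the differences were small and none of the 10 genes passed, where 0.0243% of all genes passed as lower and 0.0284% in either direction. The deleted gene *Gpr146* did not pass in BAT (log2 fold change -1.16, adjusted p = 0.0727 from limma). The median log2 fold change over the 10 was -0.13. Means were lower for 9 of them, where 49.2% of all genes were, and no member had genotypes without overlap, where 3.92% of all genes were lower in this way. *Cd68* measured 5.34, 4.89, 4.99 and 5.27 in wild-type mice and 4.27, 4.996, 4.16 and 4.41 in knockout mice. *Itgam* measured 3.51, 3.53, 3.45 and 3.51 against 3.00, 3.52, 3.02 and 2.88. Both had knockout mice 1, 3 and 4 below all wild-type mice and knockout mouse 2 among them, and they were the 2 genes lower at an unadjusted p below 0.05, where 7.44% of all genes were. Their log2 fold changes were -0.67 (adjusted p = 0.167) and -0.39 (0.239). The resident-type genes had log2 fold changes between -0.12 and 0.10, and the 95% interval for *Mrc1* ran from -0.45 to 0.66. Muscle genes were high in knockout mouse 2 and wild-type mice 2 and 3. With the mean of the muscle list as a covariate, or without these 3 arrays (an alternative added after seeing the data), 0 members passed, and without them the log2 fold change of *Cd68* was -1.03.

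**Figure D3:**
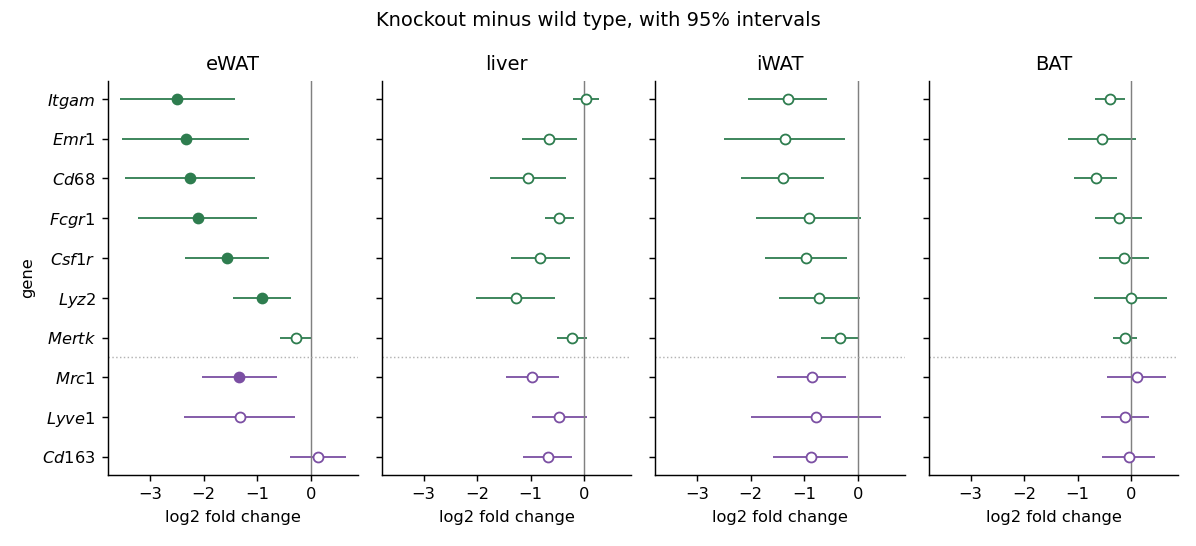
Knockout minus wild type for each macrophage gene and tissue. The horizontal axis gives the log2 fold change with its 95% interval from limma (4 against 4 mice), green for common and purple for resident-type genes, and filled points passed after adjustment; the 7 filled points are all in eWAT, from -2.49 to -0.91.

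The knockout effect on *Itgam* was larger in eWAT than in liver and than in BAT, whether or not mice were paired, and other genes passed only with pairing. The wild-type level of *Itgam* was 7.84 in eWAT, 3.50 in BAT and 2.55 in liver, there below the median of all genes. This left little room in liver or BAT for a fall of the size measured in eWAT. The same held for *Fcgr1*, with wild-type means of 3.86 in liver and 3.42 in BAT. It also held for *Emr1*, with 4.46 in BAT and slightly less in liver. A fall of the eWAT size would have put both genes below the array medians there. The part of these low levels in the differences between tissues was not tested. For the paired test the difference between tissues was taken within each mouse, as the labels number the mice alike in all tissues, and genotypes were compared on these differences, again over all genes, for the 6 pairs of tissues. Between eWAT and liver 5 of the 10 genes passed, all more strongly lower in eWAT, where 5.71% of all genes passed in that direction and 8.37% in either. They were *Itgam* (difference of log2 fold changes -2.53, adjusted p = 0.0110), *Emr1* (-1.68, 0.0289), *Fcgr1* (-1.64, 0.0496), *Cd68* (-1.21, 0.0203) and *Csf1r* (-0.74, 0.0270). Between eWAT and BAT 7 passed, where 4.75% of all genes did in that direction and 6.93% in either. Those were *Itgam* (-2.10, adjusted p = 0.0113), *Fcgr1* (-1.88, 0.0189), *Emr1* (-1.78, 0.0312), *Cd68* (-1.60, 0.0453), *Mrc1* (-1.44, 0.00833), *Csf1r* (-1.42, 0.0126) and *Lyz2* (-0.90, 0.0430). Between BAT and liver 1 passed, *Mrc1*, with a log2 fold change of 0.10 in BAT and -0.97 in liver (difference 1.07, adjusted p = 0.0401), where 0.0893% of all genes passed and 0.073% in that direction. No member passed between eWAT and iWAT (0% of all genes), iWAT and BAT (0%) or iWAT and liver (0.00406%). These pairs of tissues share arrays and are not independent of each other. The data gave little sign of the pairing, since the deviations of a mouse from its group mean, taken across all genes, correlated weakly between tissues (r from -0.145 to 0.299 in all, and from -0.0635 to 0.15 between eWAT and liver). When the mice were not paired, *Itgam* alone passed between eWAT and liver (adjusted p = 0.00942) and between eWAT and BAT (0.0312), and no member between BAT and liver. With 1 array left out, 1 to 6 genes passed between eWAT and liver, with 1 left without wild-type mouse 2, 3 or 4 or knockout mouse 1 or 4, 3 without wild-type mouse 1, and 6 without knockout mouse 2. Between eWAT and BAT it was 3 without wild-type mouse 2 or 4 or knockout mouse 1 or 4, 4 without wild-type mouse 1 or knockout mouse 3, and 7 otherwise. Between BAT and liver it was 0 or 1.

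In eWAT the mean difference was larger over the common genes (-1.71) than over the resident-type genes (-0.84). For each mouse the value of each gene was set against its wild-type mean, and the mean over the 7 common genes was subtracted from the mean over the 3 resident-type genes. In eWAT this difference was 0.93, 0.67, 0.85 and 1.02 in the 4 knockout mice and 0.33, 0.00, -0.37 and 0.04 in the 4 wild-type mice, so that the genotypes did not overlap and knockout mouse 2 lay near the rest. The means differed by 0.87. In BAT the difference was 0.35, 0.44, 0.20 and 0.13 against 0.05, -0.03, 0.15 and -0.17, with a slight overlap. In liver (means differing by -0.06) and iWAT (0.16) the genotypes overlapped. No test is given, since the score runs over genes chosen by name. Within the resident-type group *Cd163* had no lower mean in eWAT (0.14), while *Mrc1* and *Lyve1* each had -1.33. The value of 0.87 thus rests in large part on *Cd163*, which in knockout mouse 2 lay 0.82 above the wild-type mean. *Mrc1* and *Lyve1* had larger differences than *Lyz2* and *Mertk* of the common group. Leaving out 1 array moved the eWAT value between 0.74 and 0.98.

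**Figure D4:**
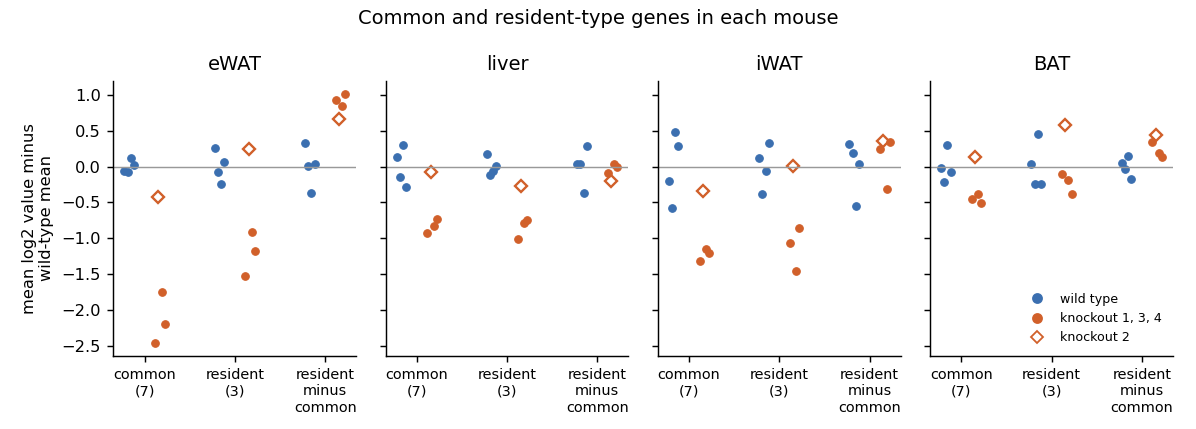
Common and resident-type genes in each mouse. The vertical axis gives the mean log2 value of 7 common or 3 resident-type genes relative to the wild-type mean, or their difference; in eWAT the difference is 0.67 to 1.02 in knockout and -0.37 to 0.33 in wild-type mice, and knockout mouse 2 (open diamond) lies with the other knockout mice in the difference only.

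Knockout mouse 2 had the highest macrophage gene levels of the knockout mice in most cases. It was the highest of the 4 for 9 of the 10 genes in eWAT, 10 in iWAT, 9 in BAT and 6 in liver, where over all genes it was the highest for 27.5%, 24.8%, 23.7% and 23.7%. Among all genes that fell in eWAT the share was 81.3%. The median difference of the 10 genes from the wild-type mean in this mouse was -0.31 in eWAT, -0.32 in iWAT, -0.12 in liver and 0.28 in BAT. Without it, the corresponding medians were -1.90, -1.18, -0.77 and -0.28, and all remaining knockout values lay below all wild-type values for 8 genes in eWAT, 7 in iWAT, 8 in liver and 3 in BAT, where 18%, 8.91%, 6.79% and 6.04% of all genes did. Its *Gpr146* value was the lowest of the knockout mice in liver (4.26), eWAT (3.63) and iWAT (3.82). In BAT it was the highest (4.69), below the lowest wild-type mouse (5.10). The mouse was kept in all results unless stated.

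Other genes of the macrophage lineage fell in eWAT as well, where 10.7% of all genes fell and 4.57% rose. Of 24 further genes common to macrophages, 20 fell and none rose, with a median log2 fold change of -1.72. Examples were *Lilrb4*, an inhibitory receptor (-2.19, adjusted p = 0.0122), *Fcer1g*, the signalling chain of Fc receptors (-2.06, 0.0122), *Fcgr4*, an IgG receptor (-1.96, 0.0123), and *Cd14*, the co-receptor for lipopolysaccharide (-1.32, 0.0115). Of 18 further resident-type genes, 17 had lower means, where 43.5% of all genes did, with a median log2 fold change of -0.44. Among the 18, 4 fell and 1 rose, the latter a share near that of all genes. The 4 were *Folr2*, a folate receptor (-2.47, adjusted p = 0.0146), *Pf4*, a chemokine (-1.41, 0.0183), *Clec10a*, a lectin (-1.05, 0.0215), and *Stab1*, a scavenger receptor (-0.93, 0.0217). The 1 that rose, named after its value was seen, was *Retnla*, a secreted protein of alternatively activated macrophages, with 1.04 (adjusted p = 0.0308). Whether the shares of the lists differ was not tested.

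Among 14 genes of the CSF1 axis and the transcription factors of macrophages, 7 fell in eWAT, beside 10.7% of all genes, and 1 rose, beside 4.57%. *Runx1*, a transcription factor of blood cells (-1.14, adjusted p = 0.00865), *Csf2ra*, a chain of the GM-CSF receptor (-1.99, 0.00915), and *Tfec*, a transcription factor of macrophages (-1.51, 0.0142), were among those that fell, and *Cebpa*, a factor that adipocytes also express, rose (1.13, 0.00823). *Sfpi1*, which encodes PU.1, had -1.65 (adjusted p = 0.0173). The ligands of CSF1R did not pass, with -0.56 for *Csf1* (adjusted p = 0.0640) and 0.16 for *Il34* (0.399). These last 3 genes were named for their part in the pathway and not for their p. Among 8 genes linked to the clearance of dying cells, not all of them in the pathway of *Mertk*, 6 fell in eWAT, beside 10.7% of all genes. *Mertk* itself did not pass. The smallest p-values were those of *Axl*, the sister receptor of *Mertk* (-0.95, 0.0180), *Mfge8*, a bridging protein (-1.17, 0.0193), *Itgav*, an integrin alpha chain (-0.58, 0.0203), and *Itgb2*, the chain that pairs with the product of *Itgam* (-2.17, 0.0206).

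Over 7 lists of other blood and vascular cells, 8 of 55 genes passed in eWAT (14.5%), near the share of all genes (15.2%), 6 as lower and 2 as higher. None of 8 B cell genes passed, and of 10 neutrophil genes, which would carry *Itgam* and *Lyz2*, 0 fell and 1 rose (*Mpo*, by 0.29). In wild-type eWAT the list means were 2.82 to 2.93 for B cell and 2.08 to 2.20 for neutrophil genes. Both lay below the array medians (3.13 to 3.18), so neither list could show much of a fall. The mean of the B cell list was 4.02 in knockout mouse 3 and 2.75 to 2.93 in the other eWAT arrays. Of 6 monocyte genes 1 fell (*Fn1*, -1.30), of 8 dendritic cell genes 1 fell (*Itgax*, -2.69) and 1 rose (*Zbtb46*, 0.41), and of 9 T and NK cell genes 2 fell (*Il7r*, -3.47, and *Ncr1*, -0.76). *Itgax* is also expressed by the macrophages of obese fat. Among 6 lymphatic endothelial genes, which bear on *Lyve1*, 1 fell (*Pdpn*, -1.32, which other stromal cells and macrophages also express), while *Prox1*, the defining factor of that cell type, was below the array medians in both genotypes and had 0.18 (adjusted p = 0.207). Of 8 vascular genes 1 fell (*Oit3*, -0.54), and of 7 adipocyte genes 6 rose and 1 fell, and the mean of that list ran from 9.40 to 9.51 in wild-type and from 9.58 to 9.88 in knockout mice. The part of the adipocyte share of the RNA in the lower macrophage genes was not tested.

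In liver 1 of 24 further common genes (*Fcgr2b*, -1.32, adjusted p = 0.00565, also a gene of sinusoidal endothelium) and 1 of 18 further resident-type genes (*Fcna*, a ficolin, -0.97, adjusted p = 0.0147) fell, both named after their values were seen. Of all genes 0.499% fell there. In iWAT and BAT 0 genes of any list passed. The direction in iWAT was lower for 23 of 24 further common genes (median -0.90) and for 18 of 18 further resident-type genes (-0.53), where 46.8% of all genes were lower. In BAT the medians were -0.15 and 0.04.

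**Figure D5:**
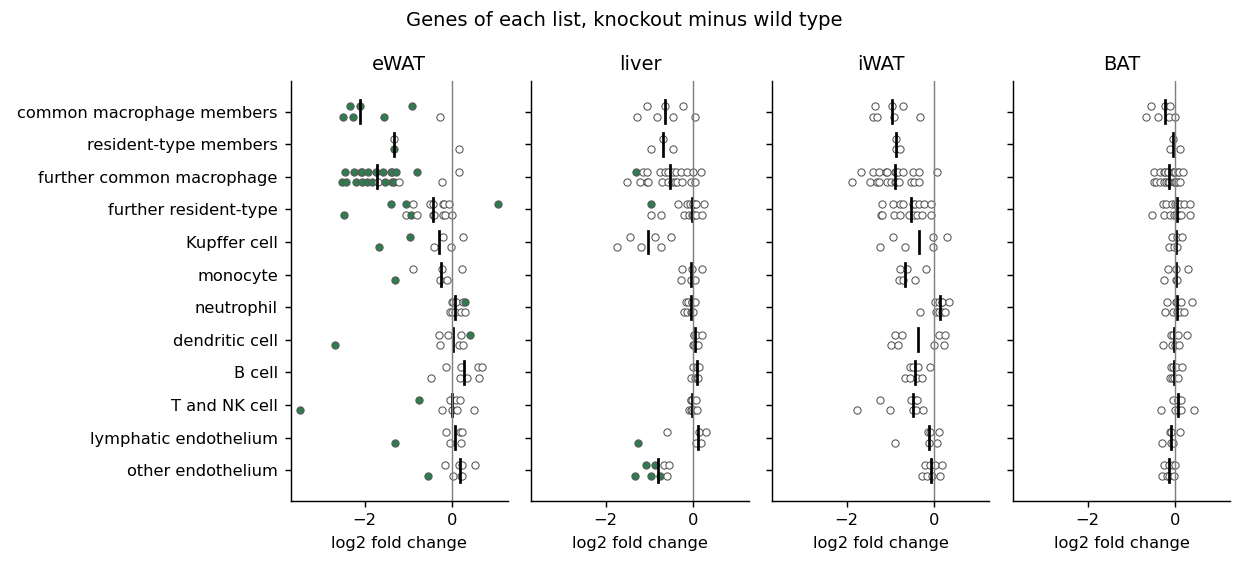
Genes of the macrophage lists and of other cell types, knockout minus wild type. Each circle is a gene on the horizontal axis of log2 fold change, filled green where it passed after adjustment, and the black bar is the median of the list; filled circles gather in the common macrophage lists of eWAT (20 of 24 further genes) and in the endothelial list of liver (5 of 8).

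Outside the 10 genes, those whose values most resembled their mean over the 32 arrays, each set against its wild-type mean in the tissue, were *Fcer1g* (Pearson r = 0.973), *Tyrobp* (0.972), *C1qc* (0.972), *C1qb* (0.971) and *Clec12a* (0.967) among 24636 genes. *Fcer1g* and *Tyrobp* encode signalling adaptors of myeloid receptors, *C1qb* and *C1qc* encode chains of complement C1q, and *Clec12a* encodes a myeloid lectin. The arrays share mice and genotypes, so that r is a description. In eWAT the 5 genes had log2 fold changes from -2.45 (*Clec12a*) to -1.79 (*C1qc*).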

How the data were processed

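The authors hybridised RNA (100 ng, Trizol-extracted, biotin-labelled) of 4 tissues to Affymetrix Mouse Gene 2.1 ST arrays and deposited log2 values, 1 per gene symbol. These are taken to have been normalised within each tissue. The software, probe summary and normalisation are not given in the sources used here. For 840 genes the identifier is not a whole number, and their value is taken to be a mean over several probe sets. From every table, 1 or 2 entries with no usable name were left out, which left 24646 genes. Liver knockout samples were grouped by genotype, source name and description, against their titles, which also name wild type.

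Each tissue was fitted on its own in limma 3.58.1 (R 4.3.3), with Benjamini-Hochberg adjustment over all genes and a threshold of 0.05. Effects of 2 tissues were compared on differences within each mouse. The number of arrays limits the precision. The fits were checked on simulated data. Promoters were searched in Python 3.11.15 on both strands. The 10 genes are named in every tissue, *Gpr146* likewise, of each gene list at most 4 genes with the smallest p in eWAT unless stated, and the 5 genes most like the members. Members and lists were chosen with earlier results of these data known. Alternatives were a trended and robust prior, array weights, quantile normalisation, equal array medians, dim genes left out, the methods' t-test, a block for the replicate number, marker covariates, unpaired mice and each array left out.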

Additional observations from a re-analysis of the deposited data

Results flagged for a closer look

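Single arrays stood apart from the others of their group in 5 of the 80 groups of 4 mice that were examined (10 genes, 4 tissues, 2 genotypes). Among independent groups chance would set apart about 1 in 20. These groups share mice and arrays, so that rate is no yardstick for the count. Knockout mouse 2 was such an array for *Csf1r* in liver (5.61, the others 4.47 to 4.65), *Emr1* in liver (4.31, the others 3.53 to 3.58) and *Fcgr1* in eWAT (6.64, the others 3.99 to 4.38). Wild-type mouse 3 was such an array for *Cd68* in liver (5.33, the others 5.13 to 5.15) and *Emr1* in BAT (5.42, the others 4.06 to 4.25).

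The knockout effect differed between tissues, by the test on differences within each mouse, for the genes named in the comparison of tissues above. Between eWAT and liver the differences were -1.21 for *Cd68*, -2.53 for *Itgam*, -0.74 for *Csf1r*, -1.68 for *Emr1* and -1.64 for *Fcgr1*. Between eWAT and BAT they were -1.60 for *Cd68*, -2.10 for *Itgam*, -1.42 for *Csf1r*, -1.78 for *Emr1*, -0.90 for *Lyz2*, -1.88 for *Fcgr1* and -1.44 for *Mrc1*, and between BAT and liver 1.07 for *Mrc1*. Without pairing of the mice *Itgam* was the only gene left, in the first 2 of these pairs of tissues. Low wild-type levels of *Itgam*, *Fcgr1* and *Emr1* in liver and BAT limited the fall that could be measured there.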

How the results depend on the processing

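The count of members that passed in eWAT was 7 or 8 under every alternative other than the methods' t-test (0) and arrays left out (1 to 8). In liver it was 0 apart from arrays left out (0 to 4), in iWAT 0 apart from arrays left out (0 to 1) and the 3 arrays highest in B cell genes left out (1), and in BAT 0 throughout. Leaving out single arrays moved the resident minus common difference between 0.74 and 0.98 in eWAT. The same range was -0.19 to 0.03 in liver, -0.022 to 0.32 in iWAT and 0.22 to 0.33 in BAT. Over all genes, single arrays left out gave 1448 to 5429 calls for eWAT, 41 to 300 for liver, 0 to 227 for iWAT and 0 to 80 for BAT. The methods' t-test gave 38 calls for eWAT, 2 for liver, 1 for iWAT and 0 for BAT, dim genes left out gave 252 in liver, and the 3 arrays highest in B cell genes left out gave 78 in iWAT. BAT had 0 with quantile normalisation, equal array medians or the 3 arrays highest in muscle genes left out. The cause of these shifts was not tested.

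For the tissue differences, members called were 1 to 6 (eWAT and liver), 3 to 7 (eWAT and BAT), 0 to 1 (eWAT and iWAT), 0 to 1 (BAT and liver), 0 (iWAT and liver) and 0 (iWAT and BAT) with arrays left out. Without mouse pairing they were 1, 1 and 0 for eWAT and liver, eWAT and BAT, and BAT and liver, and quantile normalisation gave 0 for the last. Subtracting array medians kept the order of wild-type levels for 6 genes.

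Signs turned only for differences near 0. *Itgam* in liver had -0.00215 with quantile normalisation and -0.048 to 0.12 with arrays left out. *Cd163* in eWAT had -0.026 with array weights and -0.080 to 0.29 with arrays left out. In BAT, *Lyz2* had 0.00494 with array weights, 0.040 with quantile normalisation and 0.10 with the muscle covariate, and *Cd163* had 0.00583, 0.00281 and 0.034 under the same 3. *Mrc1* in BAT had -0.090 without the 3 arrays highest in muscle genes. With arrays left out, the BAT values ran from -0.24 to 0.26 for *Lyz2*, -0.23 to 0.11 for *Cd163*, -0.27 to 0.049 for *Csf1r* and -0.28 to 0.035 for *Lyve1*, and *Mrc1* from -0.15 to 0.26.

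The deviations of same-numbered wild-type and knockout mice correlated with r from -0.385 to 0.669, both extremes in iWAT. In each tissue the same-numbered knockout mouse was the best match for some wild-type mice and not for others. Whether the numbers pair them cannot be told from these correlations. With the replicate number as a block, 7 members passed in eWAT and 0 in the other tissues, and over all genes the block gave 1 call in iWAT and 0 in BAT.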
